A study of Mus musculus with 10 samples.

Results

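The genes described here were chosen as markers of the cells that lie around and between the seminiferous tubules of the mouse testis. They are 41 genes chosen by name and matched to the gene names of the deposited table, out of 30719 genes measured. Of these, 8 are genes of interstitial and progenitor cells, 16 are contractile genes of peritubular myoid cells, vascular smooth muscle and pericytes, and 17 are endothelial genes. All 41 passed the filter on low counts.

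Testis RNA came from mice at postnatal day 10, on a mixed background of 129sv and C57Bl (50% each by the labels). There were 5 wild-type (WT) mice and 5 mice labelled FXR-/-, which by that label lack the farnesoid X receptor FXRα, a bile acid receptor encoded by Nr1h4. Whole frozen testes were used, with 1 library per mouse, and no other allele, agent or treatment is given for either group. The labels say neither which part of the gene was removed nor whether the mice were littermates. Libraries are named by genotype and the number in their title, WT 3, 4, 5, 6 and 9 and FXR-/- 8 to 12.

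The interstitium of the testis holds steroid-producing Leydig cells, fibroblast-like progenitors, macrophages and blood vessels. Each tubule is wrapped by flat peritubular myoid cells, which contain the actin and myosin of smooth muscle and whose contraction moves sperm and fluid. Capillaries run between the tubules and are lined by endothelial cells, with pericytes on their outer side. Progenitors of the interstitium carry the receptor PDGFRα and the transcription factor TCF21 and give rise to several of these lineages during development.

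The libraries held 32330029 to 39655170 counts. Nr1h4 had 13 to 26 counts in WT and 8 to 13 in FXR-/- libraries, low in both (log2 fold change -0.84, SE 0.23, edgeR adjusted p = 0.0347), and 7 of 10 fits without 1 library lost this call. DESeq2 did not call it (adjusted p = 0.071), so at these counts Nr1h4 is only a weak check of the genotype labels. Values below are CPM, counts relative to the total of their library, scaled with trimmed-mean (TMM) factors. Markers of 3 other cell types differed between the genotypes. Summed CPM of 6 Sertoli cell markers was 3225 to 4033 in WT and 1972 to 3001 in FXR-/-, and 5 of the 6 fell. Summed CPM of 7 duct epithelium markers was 22.2 to 33.6 and 48.4 to 81.2, and all 7 rose. Summed CPM of 8 adipocyte markers was 21.4 to 126 and 70.3 to 918, with overlap, and 7 of the 8 rose. The number called was 7 without WT 4, FXR-/- 8 or FXR-/- 12, and 4 without FXR-/- 10 or 11. It was 2 without WT 3, 5, 6 or 9 or FXR-/- 9, and 1 without FXR-/- 9 and 10 together. Of the other lists, 2 of 6 Leydig cell markers fell and 1 of 7 macrophage markers rose. In addition, 1 of 5 tested erythroid markers rose and 1 of 7 tested skeletal muscle markers fell. Over all genes tested, edgeR called 6.17% higher and 7.71% lower. None of 4 mesothelium markers passed by edgeR. DESeq2 called 1 of the 4, beside 18.8% of all genes tested. An unadjusted edgeR p under 0.05 was found for 2 of the 4, beside 30% of all genes tested. The adipocyte sum was highest in FXR-/- 9 (918) and FXR-/- 10 (522). No marker of these lists was at 0 in any library.

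Few of these genes changed in FXR-/- testes. Vcam1, a cell adhesion molecule, and Myl9, a light chain of smooth muscle myosin, fell. The cell surface protein gene Thy1, the pericyte gene Rgs5 and the endothelial genes Erg and Ecscr rose. A gene was called changed where the edgeR quasi-likelihood test, run across all genes, gave a Benjamini-Hochberg adjusted p under 0.05. By this rule 6 of 41 members changed (14.6%), beside 13.9% of all 18559 genes tested, so the share was close to that of all genes. The genotypes did not overlap in 4 of 41 members (9.76%), beside 11.6% of all genes tested. Of the progenitor and interstitial genes 2 of 8 changed, of the contractile genes 2 of 16, and of the endothelial genes 2 of 17. The share of all tested genes called higher was 6.17% and the share called lower 7.71%. The largest size of a member's log2 fold change was 0.55, in Thy1, and the median over the 41 members was 0.013, beside 0.014 over all genes.

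**Figure D1:**
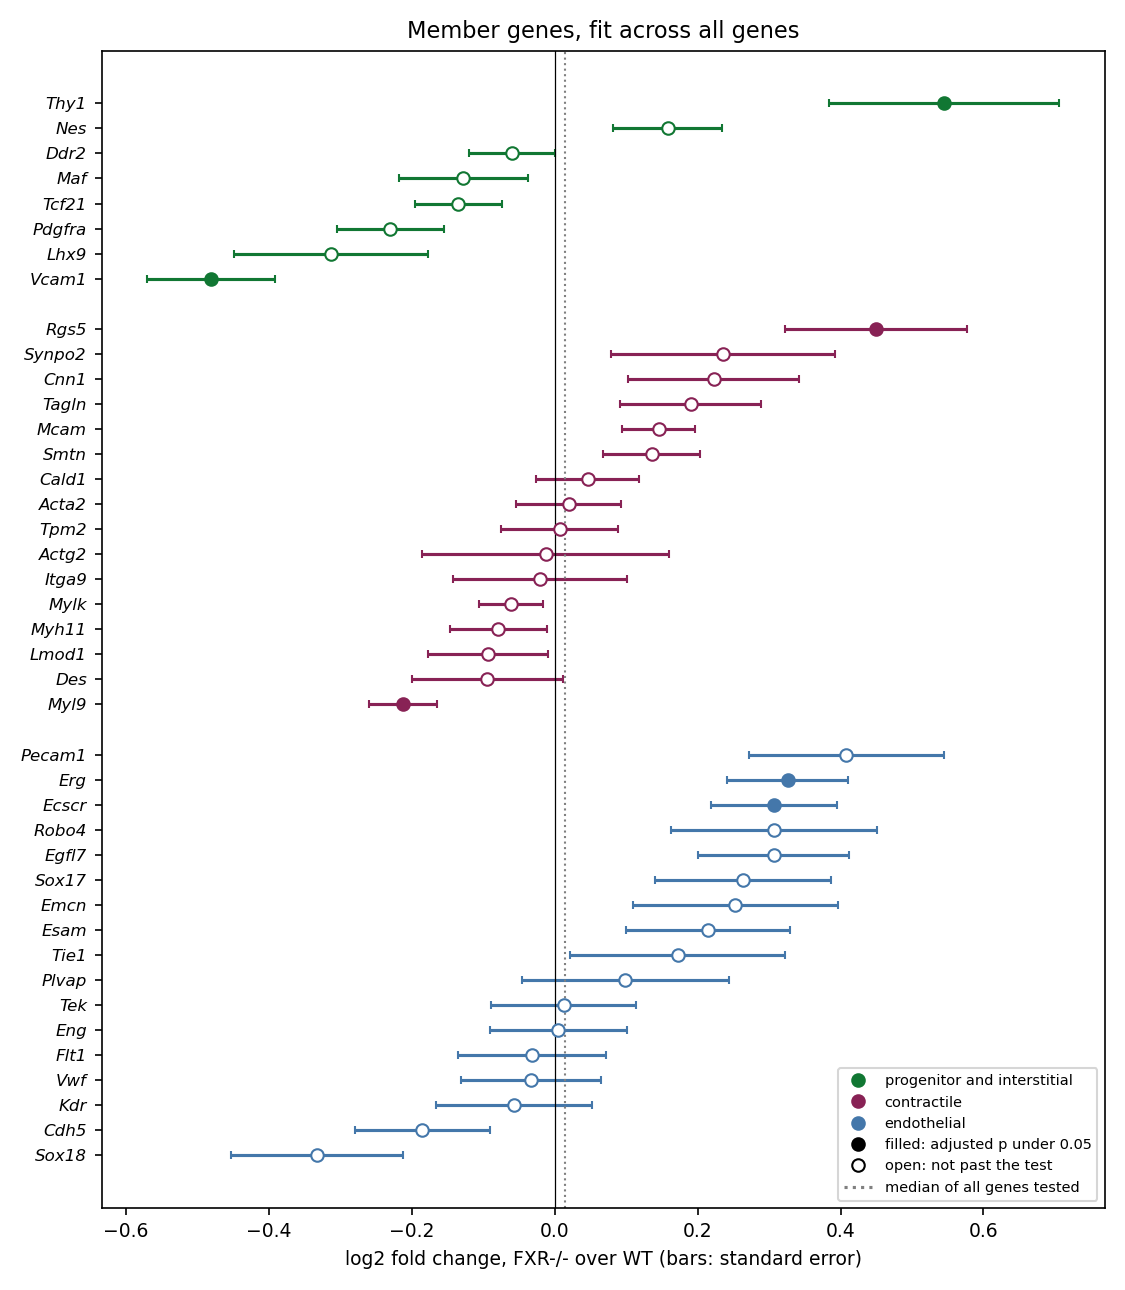
Log2 fold change of each of the 41 members (horizontal axis, FXR-/- over WT), with the standard error as bars, in the 3 groups. Filled points mark the 6 members past the test, and the dotted line is the median of all genes tested. Most progenitor genes lie left of 0, contractile genes lie on both sides, and 12 of 17 endothelial genes lie to the right.

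The groups leaned differently without most of their members passing the test. The median log2 fold change was -0.13 for the progenitor genes, 0.013 for the contractile genes and 0.17 for the endothelial genes. Fitted values were below 0 in 6 of 8 progenitor genes and above 0 in 12 of 17 endothelial genes, beside 53.3% of all genes above 0. The endothelial median depended on single libraries. It was -0.0023 without FXR-/- 9, and 0.25 without FXR-/- 11 and likewise without FXR-/- 12. The contractile median was -0.044 without FXR-/- 8 and -0.031 without WT 9, and the progenitor median stayed below 0 whichever library was left out (-0.17 to -0.076). In whole-tissue RNA, fewer cells of a type and less RNA per cell cannot be told apart.

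Among progenitor and interstitial genes, Vcam1 fell and Thy1 rose. Vcam1 (chromosome 3, 116109949 to 116129688, minus strand, GRCm38) encodes an adhesion molecule that binds integrins of leukocytes, and it is also a marker of stromal cells. Its level was 87.4, 105, 72.6, 95.2 and 85.0 CPM in WT 3, 4, 5, 6 and 9, and 69.5, 65.8, 66.5, 60.7 and 56.5 CPM in FXR-/- 8 to 12. Every FXR-/- library lay below every WT library, and the WT libraries were spread more widely. The fall was 1.40-fold, from 89.0 ± 12.0 to 63.8 ± 5.17 CPM (SD, n = 5 per genotype; log2 fold change -0.48, SE 0.089, edgeR adjusted p = 0.00574, two-sided p = 0.00794 by exact permutation, the lowest value that 5 mice against 5 allow). The call held whichever library was left out, with log2 fold changes of -0.55 to -0.42. The 5 Sertoli markers that fell moved in the same direction, and their part in the fall of Vcam1 was not tested.

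Thy1 (chromosome 9, 44043384 to 44048579, plus strand), also called CD90, is a surface glycoprotein of several cell types, fibroblasts, T cells and neurons among them. It was the least abundant progenitor gene, and whole-testis RNA does not show which cells held it. WT libraries held 3.16, 3.28, 3.01, 2.78 and 1.96 CPM, in the order 3, 4, 5, 6 and 9, and FXR-/- 8 to 12 held 3.01, 4.57, 4.35, 4.82 and 3.96 CPM. FXR-/- 8 lay among the WT libraries, while the other 4 lay above all of them, and WT 9 was lowest. Thy1 rose 1.46-fold (log2 fold change 0.55, SE 0.16, edgeR adjusted p = 0.0431, two-sided p = 0.0317 by exact permutation). This call was lost in 9 of 10 fits that left out 1 library, where the adjusted p reached 0.104, and it held without FXR-/- 8.

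Pdgfra and Tcf21 were the progenitor genes with the highest level per kilobase of exon (41.8 CPM per kilobase for Tcf21 and 38.3 for Pdgfra in WT). Pdgfra, which encodes the receptor for platelet-derived growth factor A on stromal cells, stood at 453, 389, 393, 353 and 334 CPM in WT and 332, 305, 355, 329 and 316 CPM in FXR-/- libraries, in the same order. Of the 5 FXR-/- libraries, 4 lay below all WT libraries, and FXR-/- 10 overlapped them. The log2 fold change was -0.23 (SE 0.075) with an edgeR adjusted p of 0.0609, so Pdgfra did not pass the test. It did pass without WT 9 or without FXR-/- 10, where the smallest adjusted p was 0.032. DESeq2 called it lower (adjusted p = 0.0298), so that tool called 3 of 8 progenitor genes, beside 18.8% of all genes tested.

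Tcf21, a helix-loop-helix factor of stromal progenitors, held 113, 96.7, 93.0, 100.2 and 88.1 CPM in WT and 93.2, 90.7, 91.7, 85.7 and 85.7 CPM in FXR-/- libraries. The ranges overlapped and WT 3 was highest (log2 fold change -0.13, edgeR adjusted p = 0.163). The remaining progenitor genes did not pass. They were the LIM homeobox factor gene Lhx9 (log2 fold change -0.31), the collagen receptor gene Ddr2 (-0.060), the transcription factor gene Maf (-0.13) and Nes (0.16), which encodes nestin, an intermediate filament of progenitors and pericytes.

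Of the 16 contractile genes, Myl9 fell, Rgs5 rose and 14 did not pass. Acta2, which encodes smooth muscle α-actin, had the highest level per kilobase of exon among them (218 CPM per kilobase in WT), followed by Myl9 (191). Acta2 stood at 495, 487, 458, 517 and 441 CPM in WT 3, 4, 5, 6 and 9 and at 573, 418, 481, 481 and 478 CPM in FXR-/- 8 to 12. FXR-/- 8 was the highest of all 10 libraries and FXR-/- 9 the lowest, on either side of the WT range. The means were 479 ± 30.0 and 486 ± 55.4 CPM (SD, n = 5 per genotype), with a log2 fold change of 0.020 (SE 0.074, edgeR adjusted p = 0.889). Its sign changed when WT 9 or FXR-/- 8 was left out. The actin genes Acta2 and Actg2 are alike in sequence, and how the authors treated reads that align to several genes is not given in the sources used here, so their counts are uncertain.

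Myl9 (chromosome 2, 156775420 to 156781658, plus strand) encodes a regulatory light chain of smooth muscle myosin, which myosin light chain kinase phosphorylates to start contraction. WT libraries held 221, 222, 217, 239 and 208 CPM and FXR-/- libraries 208, 184, 189.8, 186 and 188 CPM, in the same order. FXR-/- 8 (208.39 CPM) ended just under the lowest WT library, WT 9 (208.41 CPM), and the other 4 lay well below. The fall was 1.16-fold, from 221 ± 11.3 to 191 ± 9.88 CPM (SD, n = 5 per genotype; log2 fold change -0.21, SE 0.047, edgeR adjusted p = 0.0135, two-sided p = 0.00794 by exact permutation, again the lowest value allowed). The call held in every fit that left out 1 library (log2 fold change -0.25 to -0.18). Without FXR-/- 9 and 10 together, the libraries with the most adipocyte RNA, it was lost at a similar size (log2 fold change -0.19, edgeR adjusted p = 0.0546).

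Smooth muscle genes are classically controlled by serum response factor (SRF), which binds the CArG box. In this box CC and GG flank 6 bases that are A or T, so the box has the same form on both strands, and both were searched. RefSeq promoters (GRCm38.p6, 250 bases before to 50 after the gene start) were found for 13 of 16 contractile genes. A full CArG box lay in 1 of their 14 promoters, that of Myl9, and in 1.63% of all 32851 promoters. Sequence outside these promoters was not searched, so a gene without a box here may have one elsewhere. With 1 of the 6 inner bases allowed to be G or C, the box was found in 2 of the 14, those of Myl9 and Acta2, and in 9.98% of all promoters. By the same search it was found in 4 of 13 endothelial promoters (Egfl7, Eng, Kdr and Tek, 30.8%), beside 14.3% of contractile promoters, and in 0 of 5 progenitor promoters. The bases before the start of both genes are shown because these genes hold the highest level per kilobase and 1 of them fell. Capitals mark the CArG boxes, full or with 1 mismatch. Myl9 (plus strand, chr2:156775214-156775463) has its full box, the first of the pair, starting 161 bases before the gene start. Acta2 (minus strand, chr19:34255374-34255623) has boxes starting 84 and 34 bases before it.
Myl9: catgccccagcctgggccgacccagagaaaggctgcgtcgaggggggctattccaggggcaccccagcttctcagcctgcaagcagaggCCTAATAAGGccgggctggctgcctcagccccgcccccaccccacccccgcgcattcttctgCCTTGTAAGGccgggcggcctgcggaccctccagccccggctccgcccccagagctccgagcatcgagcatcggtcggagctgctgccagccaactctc
Acta2: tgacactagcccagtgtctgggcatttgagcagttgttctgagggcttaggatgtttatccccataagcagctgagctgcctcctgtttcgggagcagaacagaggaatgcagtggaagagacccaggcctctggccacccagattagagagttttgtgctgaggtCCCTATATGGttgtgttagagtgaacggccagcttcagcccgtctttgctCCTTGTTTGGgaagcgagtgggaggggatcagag

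The genes for SRF and its cofactors did not pass the test. None of 4 (Srf, Myocd, Mkl1 and Mkl2) passed by edgeR or by DESeq2, and 0 had an unadjusted edgeR p under 0.05. Srf stood at 93.3 ± 2.87 CPM in WT and 92.1 ± 1.35 CPM in FXR-/- (SD, n = 5 per genotype).

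Rgs5, a regulator of G protein signalling that is a standard pericyte marker, rose. It lies on chromosome 1, 169655501 to 169695813 (plus strand). WT libraries held 51.0, 57.0, 53.4, 53.5 and 48.5 CPM and FXR-/- 8 to 12 held 64.7, 103, 66.2, 61.3 and 64.2 CPM. All FXR-/- libraries lay above all WT libraries, and FXR-/- 9 stood far above the other 4. The rise was 1.37-fold (log2 fold change 0.45, SE 0.13, edgeR adjusted p = 0.0371, two-sided p = 0.00794 by exact permutation, again the lowest value allowed). Without FXR-/- 9 the log2 fold change was 0.28 with an edgeR adjusted p of 0.00879. The call was lost without any 1 of the 5 WT libraries (adjusted p up to 0.0788).

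The remaining 14 contractile genes did not pass. Mcam, an adhesion molecule of pericytes and endothelium, came closest at 163 ± 6.48 and 181 ± 12.5 CPM (SD, n = 5 per genotype; log2 fold change 0.15, edgeR adjusted p = 0.0768), with 4 of 5 FXR-/- libraries above all WT libraries. With library totals in place of TMM factors Mcam passed (log2 fold change 0.18, edgeR adjusted p = 0.0439), which gave 3 contractile calls. Fitted values above 0 were also found for the actin-binding proteins calponin (Cnn1, 0.22), transgelin (Tagln, 0.19), synaptopodin 2 (Synpo2, 0.24), smoothelin (Smtn, 0.14) and caldesmon (Cald1, 0.046). Tagln shares 108 exon bases with the gene Pcsk7 and 1241 with the antisense gene Gm48529, both on the opposite strand. Whether strand was used in counting is not given, so the value of Tagln is uncertain. In all, 13 of 41 members share exon bases with an annotated gene on the opposite strand. Smooth muscle myosin heavy chain (Myh11, -0.079), myosin light chain kinase (Mylk, -0.061), desmin (Des, -0.094) and leiomodin (Lmod1, -0.093) had log2 fold changes below 0. The γ-actin gene Actg2 (-0.013), tropomyosin gene Tpm2 (0.0070) and integrin gene Itga9 (-0.021) lay near 0. The signs of Actg2, Tpm2, Itga9 and Cald1 changed when some single library was left out, and those of Actg2 and Itga9 also with library totals in place of TMM factors.

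**Figure D2:**
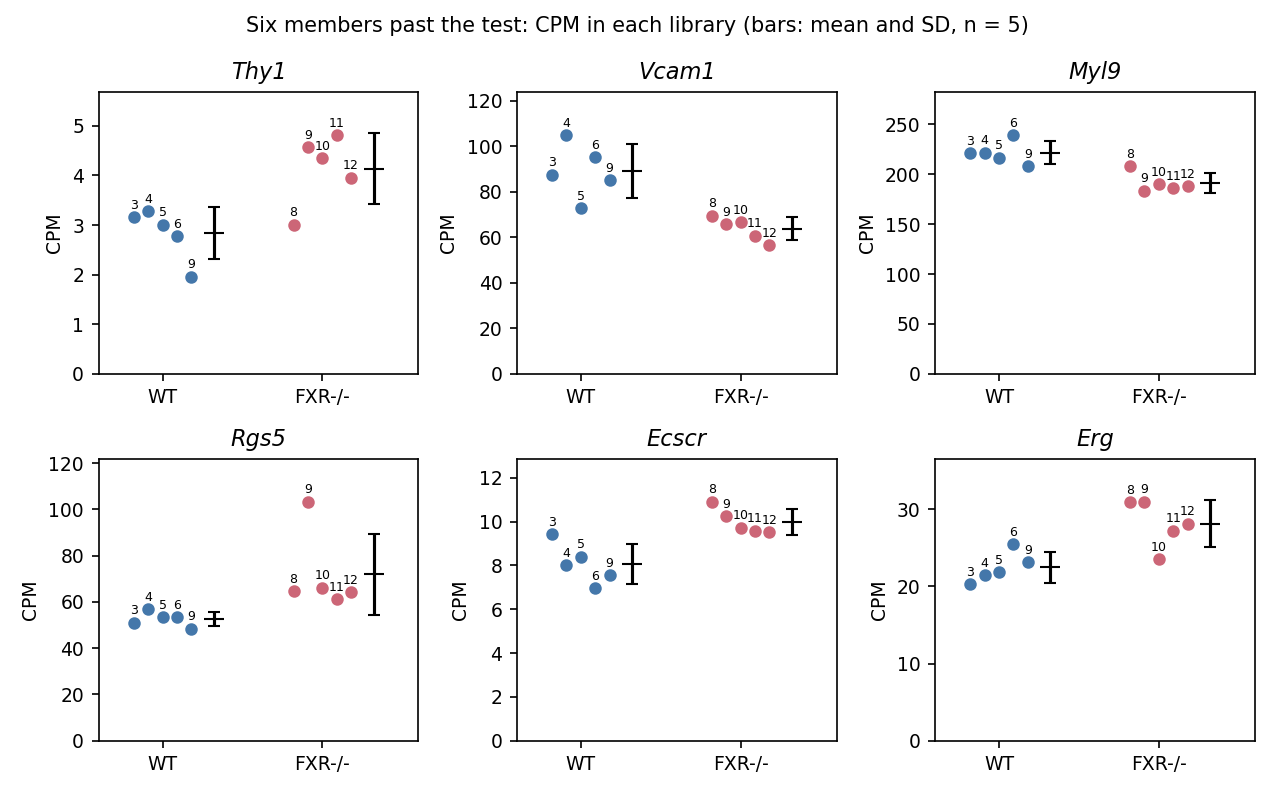
CPM (vertical axis, from 0) of the 6 members that passed the test, in each WT and FXR-/- library, with the library number above each point and the mean and SD of 5 libraries as bars. In Vcam1, Myl9, Rgs5 and Ecscr the genotypes do not overlap, while FXR-/- 8 in Thy1 and FXR-/- 10 in Erg lie within the WT range.

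Of the 17 endothelial genes, Erg and Ecscr rose and 15 did not pass. Erg (chromosome 16, 95359169 to 95586593, minus strand) encodes an ETS transcription factor that maintains endothelial identity. Its level was 20.3, 21.5, 21.9, 25.5 and 23.1 CPM in WT 3, 4, 5, 6 and 9 and 30.9, 31.0, 23.5, 27.2 and 28.1 CPM in FXR-/- 8 to 12. FXR-/- 10 lay within the WT range, and the other 4 lay above it. Erg rose 1.25-fold (log2 fold change 0.33, SE 0.085, edgeR adjusted p = 0.0265, two-sided p = 0.0159 by exact permutation). Leaving out single libraries ended the call in 5 of 10 fits (WT 3, 4 or 5 and FXR-/- 9 or 12, adjusted p up to 0.0656), with log2 fold changes of 0.29 to 0.38.

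Ecscr (chromosome 18, 35713086 to 35722356, minus strand), which encodes a small surface protein of endothelial cells, had 9.42, 8.00, 8.40, 6.97 and 7.56 CPM in WT and 10.9, 10.2, 9.72, 9.58 and 9.50 CPM in FXR-/- libraries. The lowest FXR-/- library lay just above the highest WT library, WT 3. The rise was 1.24-fold (log2 fold change 0.31, SE 0.088, edgeR adjusted p = 0.0386, two-sided p = 0.00794 by exact permutation, again the lowest value allowed). The call was lost in 8 of 10 fits without 1 library, and held without WT 3 or FXR-/- 10. Ecscr shares 62 exon bases with a gene on the opposite strand, so part of its reads may be shared.

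The most abundant endothelial genes per kilobase of exon were Cdh5, with 20.4 CPM per kilobase in WT, and Eng, with 13.4. Cdh5, or VE-cadherin, joins endothelial cells to each other. Its level was 93.4, 91.1, 79.6, 85.4 and 78.5 CPM in WT and 81.8, 85.8, 82.3, 64.9 and 61.8 CPM in FXR-/- libraries. FXR-/- 11 and 12 lay below all other libraries, while FXR-/- 8, 9 and 10 lay among the WT values (log2 fold change -0.19, SE 0.094, edgeR adjusted p = 0.21). Eng, the TGF-β co-receptor endoglin, held 61.4, 56.0, 49.8, 52.7 and 50.4 CPM in WT and 61.7, 62.2, 55.0, 46.8 and 45.6 CPM in FXR-/- libraries. Its FXR-/- values surrounded the WT range on both sides (log2 fold change 0.0051, SE 0.10, adjusted p = 0.981).

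Pecam1, Sox18 and Egfl7 also stood out and did not pass. They were chosen after their values were seen. Pecam1, the adhesion molecule CD31, held 23.8, 22.4, 20.4, 20.5 and 18.9 CPM in WT and 28.1, 37.0, 31.0, 24.6 and 20.1 CPM in FXR-/- libraries, with 4 of 5 FXR-/- libraries above all WT libraries (log2 fold change 0.41, edgeR adjusted p = 0.0675). Sox18, a transcription factor of vessel and lymphatic development, held 23.1, 22.0, 18.5, 18.1 and 18.2 CPM in WT and 17.1, 17.8, 18.6, 12.6 and 13.4 CPM in FXR-/- libraries, with 4 of 5 below all WT libraries (log2 fold change -0.33, edgeR adjusted p = 0.0852). Egfl7, a secreted endothelial protein, had a log2 fold change of 0.31 (edgeR adjusted p = 0.073). DESeq2 called these 3 as well as Erg and Ecscr, so 5 of 17 endothelial genes changed by that tool. Of these 5, 4 rose and Sox18 fell. That tool called 18.8% of all genes tested, beside 13.9% by edgeR. In contrast, no endothelial gene was called by edgeR without WT 4, without WT 5 or without FXR-/- 9. These fits called 8.55%, 10% and 10.8% of all genes tested. An unadjusted p under 0.05 was found there for 5, 5 and 6 of the 17, beside 30% of all genes with all libraries. Pecam1 passed without FXR-/- 12, and the guidance receptor gene Robo4 without WT 3 (edgeR adjusted p = 0.0202 and 0.0331). Without FXR-/- 9 and 10 together, Erg rose and Sox18 fell (log2 fold change -0.48, edgeR adjusted p = 0.0324).

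Receptors for vascular growth factors did not pass. The VEGF receptor genes Kdr and Flt1 had log2 fold changes of -0.057 (SE 0.11) and -0.032 (SE 0.10), and the angiopoietin receptor gene Tek and its relative Tie1 of 0.013 (SE 0.10) and 0.17 (SE 0.15). The other endothelial genes had log2 fold changes of 0.31 for the guidance receptor Robo4, 0.26 for the arterial factor Sox17, 0.25 for endomucin (Emcn), 0.21 for the adhesion molecule Esam, 0.10 for Plvap, a protein of capillary fenestrae, and -0.033 for von Willebrand factor (Vwf). The signs of Kdr, Flt1, Tek, Tie1, Plvap, Vwf and Eng changed when some single library was left out, and those of Flt1 and Vwf also with library totals. Eng and Egfl7 overlap exons of Fpgs and Agpat2 on the opposite strand (61 and 64 bases), so reads there may be shared.

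The 3 groups varied between mice in different ways. Endothelial genes had the wider spread in FXR-/- libraries, with a median coefficient of variation of 8.77% in WT and 16.4% in FXR-/-, beside 9.55% and 9.73% over all genes. FXR-/- 9 was the highest of all 10 libraries in 12 of 17 endothelial genes, and FXR-/- 12 was the lowest FXR-/- library in 9. Among the 16 contractile genes, FXR-/- 8 was the highest FXR-/- library in 14 and the highest of all 10 in 8. WT 9 was the lowest WT library in 13 contractile genes and the lowest of all in 8. WT 3 was the highest library in 4 of 8 progenitor genes, and FXR-/- 12 the lowest in 4.

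**Figure D3:**
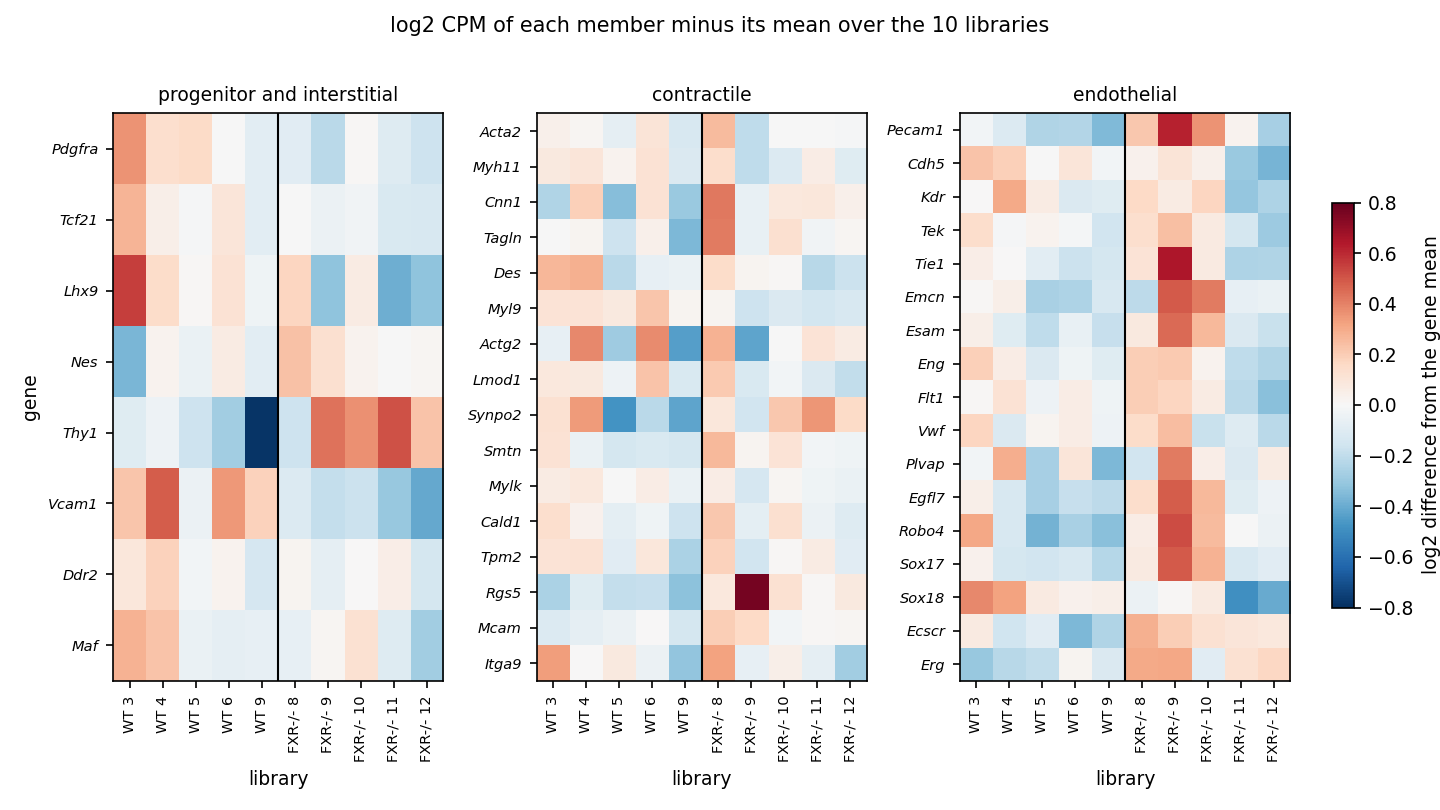
Deviation of log2 CPM from each gene's mean over 10 libraries, for the 3 groups (rows are genes, columns are libraries, colour is the log2 difference). FXR-/- 9 stands out across most endothelial genes and in Rgs5, and FXR-/- 8 across most contractile genes.

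Averaged over each group, the mean log2 CPM overlapped between genotypes. For the endothelial group it was 4.13, 4.07, 3.93, 3.97 and 3.90 in WT and 4.15, 4.39, 4.19, 3.92 and 3.90 in FXR-/- libraries, with FXR-/- 9 on top and WT 9 and FXR-/- 12 at the bottom. The contractile group stood at 6.37, 6.42, 6.20, 6.37 and 6.12 in WT and at 6.53, 6.27, 6.36, 6.32 and 6.27 in FXR-/- libraries, where FXR-/- 8 was highest and WT 9 lowest. The progenitor group had 5.80, 5.79, 5.61, 5.67 and 5.50 in WT and 5.63, 5.60, 5.68, 5.58 and 5.48 in FXR-/- libraries. Mean differences (FXR-/- minus WT) were -0.078, 0.056 and 0.11 for progenitor, contractile and endothelial genes. Each was smaller than the SD between mice of 1 genotype (0.10, 0.12 and 0.16, pooled over the genotypes).

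Differences between groups within a library cancel the scaling of that library, apart from the small prior count. The contractile minus the progenitor mean was 0.57, 0.63, 0.59, 0.70 and 0.62 in WT and 0.90, 0.67, 0.68, 0.75 and 0.79 in FXR-/- libraries. It averaged 0.62 ± 0.047 and 0.76 ± 0.092 (SD, n = 5 per genotype), and WT 6 lay within the FXR-/- range. The endothelial minus the progenitor mean was -1.66, -1.72, -1.68, -1.70 and -1.60 in WT and -1.48, -1.21, -1.50, -1.66 and -1.59 in FXR-/- libraries, where FXR-/- 11 lay within the WT range. No test was made of these group means, since the genes were chosen with results of these data known.

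**Figure D4:**
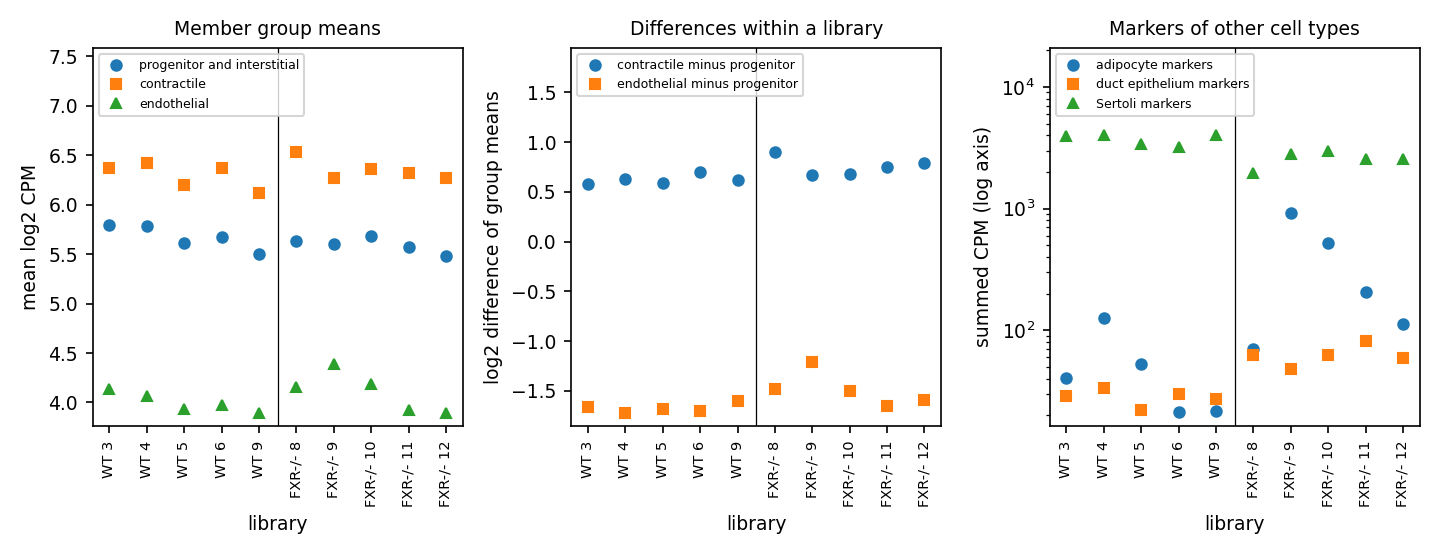
Left, mean log2 CPM of the 3 groups in each library. Middle, the contractile and endothelial means minus the progenitor mean of the same library. Right, summed CPM of adipocyte, duct epithelium and Sertoli markers on a log axis. The adipocyte sum and the endothelial mean are both highest in FXR-/- 9.

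FXR-/- 9 and 10 held the most adipocyte RNA and the highest endothelial group means of all libraries. The endothelial group mean was 4.39 and 4.19 in FXR-/- 9 and 10, where adipocyte markers summed to 918 and 522 CPM. In FXR-/- 8, 11 and 12 the group mean was 4.15, 3.92 and 3.90, and the adipocyte sum 70.3, 206 and 112 CPM. FXR-/- 8 thus combined a high endothelial mean with the lowest adipocyte sum of its genotype. It also held the most RNA of 6 erythroid markers (119 CPM, other FXR-/- libraries 38.1 to 103) and the least of the Sertoli markers (1972 CPM). The part of these cell types in the endothelial values was not tested. Without FXR-/- 9 and 10 the median log2 fold change of the endothelial genes was -0.035, against 0.17 with all libraries. It was -0.0023 without FXR-/- 9 alone and 0.17 without FXR-/- 10 alone. FXR-/- 9 and 10 were left out together although they had the highest endothelial means. A lower median without them therefore cannot show the part of adipocyte RNA.

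Within a group the genes did not keep their proportions. Myl9 had the lowest log2 fold change of the contractile group (-0.21), which by itself gives it a lower mean relative to the others. Its mean was lower in FXR-/- mice relative to each of the other 15 contractile genes of the same library. For 8 of the 15 (53.3%) it was lower with no overlap of the genotypes. The same held for 21.8% of all tested genes set against Myl9. The log2 ratio of Myl9 to Tagln was 0.72, 0.70, 0.86, 0.79 and 0.99 in WT and 0.22, 0.51, 0.37, 0.50 and 0.47 in FXR-/- libraries, with FXR-/- 8 lowest. The log2 ratio of Myl9 to Acta2 was -1.16, -1.14, -1.08, -1.11 and -1.08 in WT and -1.46, -1.19, -1.34, -1.37 and -1.34 in FXR-/- libraries, and FXR-/- 9 came closest to the WT range.

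In the endothelial group, Cdh5 and Sox18 were low relative to the rest. Cdh5 was lower in every FXR-/- than in every WT library relative to 8 of the other 16 endothelial genes (50.0%), beside 7.06% of all tested genes. These 8 were Pecam1, Tie1, Esam, Eng, Flt1, Egfl7, Sox17 and Ecscr. The log2 ratio of Cdh5 to Pecam1 was 1.97, 2.02, 1.96, 2.06 and 2.05 in WT and 1.54, 1.21, 1.41, 1.40 and 1.62 in FXR-/- libraries, 2.01 ± 0.043 against 1.44 ± 0.16 (SD, n = 5 per genotype). Sox18 was lower in this way relative to 11 of the other 16 endothelial genes (68.8%), beside 15.3% of all tested genes. Its log2 ratio to Pecam1 was -0.045, -0.026, -0.14, -0.18 and -0.059 in WT and -0.72, -1.06, -0.74, -0.97 and -0.59 in FXR-/- libraries. Between Sox18 and Cdh5 the genotypes overlapped, with a mean log2 ratio of Sox18 to Cdh5 of -2.10 in WT and -2.25 in FXR-/-. Sox18 and Cdh5 had the lowest log2 fold changes of the endothelial group (-0.33 and -0.19), which by itself lowers their ratios to the others. Neither gene passed the edgeR test with all libraries. All ratios of a gene share that gene's values, so they are not separate observations. Myl9, Cdh5 and Sox18 were chosen for these ratios after their values were seen, so the counts are a description with no test.

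**Figure D5:**
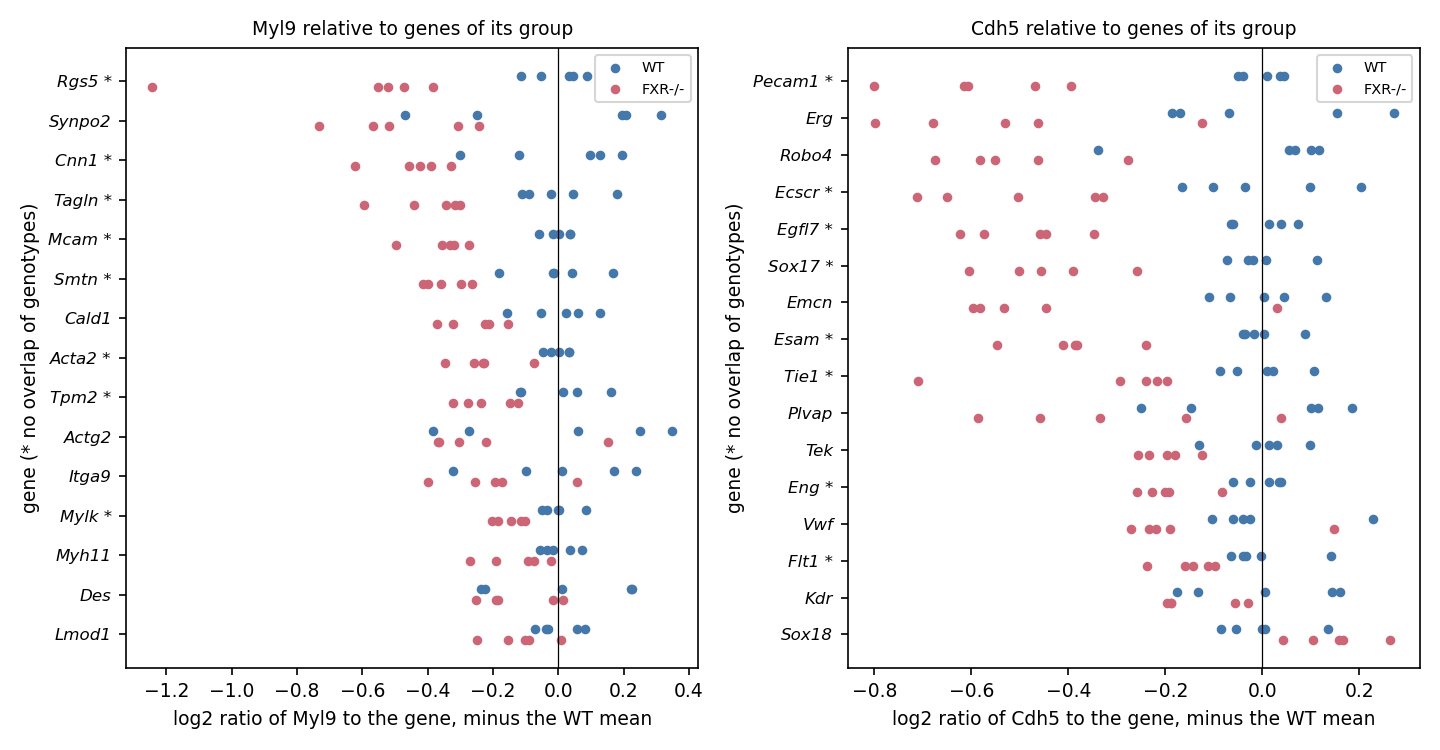
Log2 ratio of Myl9 (left) and Cdh5 (right) to each other gene of its group within a library, minus the mean of the 5 WT libraries (horizontal axis). An asterisk marks genes for which the genotypes do not overlap, 8 of 15 on the left and 8 of 16 on the right.

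Of 12 other interstitial genes, Lum and Ly6a rose, beside 6.17% of all genes tested called higher. Lum, the matrix proteoglycan lumican, rose 1.41-fold from 41.7 ± 8.66 to 58.9 ± 5.97 CPM, and Ly6a, the surface antigen Sca-1 of stromal progenitors and endothelium, rose 2.02-fold from 1.46 ± 0.406 to 2.94 ± 1.13 CPM. The edgeR adjusted p was 0.0228 for Lum and 0.033 for Ly6a (SD, n = 5 per genotype). Lum lost its call without WT 5 or WT 9, and Ly6a in 8 of 10 fits without 1 library. Neither Lum nor Ly6a passed without FXR-/- 9 and 10 (edgeR adjusted p = 0.102 and 0.129). Of 12 other contractile genes, 1 fell and 11 did not pass. That gene was Vcl, which encodes the adhesion plaque protein vinculin and fell 1.26-fold, from 255 ± 9.44 to 203 ± 16.3 CPM with no overlap (SD, n = 5 per genotype; edgeR adjusted p = 0.0031), a call that held in every fit without 1 library.

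None of 8 other pericyte genes passed by edgeR. Of the 8, 3 had an unadjusted edgeR p under 0.05, beside 30% of all genes tested. DESeq2 called 2 of the 8, both higher, beside 18.8% of all genes called by that tool. The median log2 fold change of the 8 was 0.23. The most abundant per kilobase, the endothelin receptor gene Ednra, stood at 88.7 ± 11.7 and 85.8 ± 12.3 CPM (SD, n = 5 per genotype). Of 22 other endothelial genes, 1 passed, beside 13.9% of all genes tested. It was Efnb2, the arterial ligand ephrin B2, which rose 1.41-fold from 22.0 ± 3.69 to 31.1 ± 3.71 CPM (SD, n = 5 per genotype; edgeR adjusted p = 0.0171), and its call held without any 1 library and was lost without FXR-/- 9 and 10 (edgeR adjusted p = 0.0602). The fitted value was above 0 in 20 of these 22, with a median of 0.15. It was above 0 in 16 without FXR-/- 9 alone, with a median of 0.093. It was above 0 in 10 without FXR-/- 9 and 10, and the median was then -0.038. FXR-/- 9 and 10 were the libraries with the highest summed CPM of these genes. FXR-/- 9 was the highest of all libraries in 14 of the 22.

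Among 11 ligands of the vascular and PDGF receptors, 2 rose, 1 fell and 8 did not pass. Over all genes tested, 6.17% were called higher and 7.71% lower. Vegfa, the main ligand of Kdr and Flt1, rose 1.34-fold. It stood at 64.1, 60.3, 60.0, 55.1 and 50.2 CPM in WT 3, 4, 5, 6 and 9 and 89.3, 91.3, 76.9, 63.8 and 66.3 CPM in FXR-/- 8 to 12, where FXR-/- 11 lay just within the WT range (log2 fold change 0.42, SE 0.10, edgeR adjusted p = 0.0226). Pdgfb, through which endothelium recruits pericytes, rose 1.23-fold from 17.5 ± 1.77 to 21.4 ± 2.46 CPM with no overlap (edgeR adjusted p = 0.0489). Angpt2, the angiopoietin that opposes Angpt1 at the Tek receptor in many settings, fell 1.43-fold from 6.73 ± 1.11 to 4.69 ± 0.981 CPM (SD, n = 5 per genotype; edgeR adjusted p = 0.0446). Leaving out single libraries ended the call of Vegfa in 2 of 10 fits (WT 6 or WT 9), of Pdgfb in 7 and of Angpt2 in 6. Pdgfb also lost its call with the size factors of DESeq2 used in edgeR (RLE scaling) and with no filter on low counts (edgeR adjusted p = 0.0541 and 0.0617), and Angpt2 with library totals and with no filter (edgeR adjusted p = 0.0538 and 0.0503). Vegfa and Pdgfb did not pass without FXR-/- 9 and 10 (edgeR adjusted p = 0.0868 and 0.0671), while Angpt2 did (0.0131).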

How the data were processed

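RNA sequencing of testes from 5 WT and 5 FXR-/- mice was used as whole-number raw counts per gene, as the authors deposited them. Per the labels' protocols, RNA was extracted with Trizol and a TruSeq kit was used. The series' design text gives 1 library per mouse and 1 flowcell for all. FastQC 0.10.1, CASAVA, Bowtie, TopHat2 2.0.10, Bowtie2 2.1.0 and build mm10 are named in the submitters' processing notes, with no role or order. Not given in the sources used here are the read counter, whether it used strand, and what it did with multiply aligned reads. The authors' normalized columns were not used.

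After filterByExpr and TMM scaling, edgeR 4.0.16 in R 4.3.3 compared the genotypes (quasi-likelihood F-test, genotype as the only term, Benjamini-Hochberg adjustment over 18559 genes). Single members past that test also had a two-sided exact permutation test of mean CPM. It used the same libraries and only members already called, with no adjustment, so it is not separate support for a call. Levels per kilobase used exon lengths from GENCODE M21 (GRCm38, the build of mm10), which matched 30212 of 30719 identifiers. Group means used log2 CPM with a prior count of 2. DESeq2 1.42.0, other scalings and filters, and fits without single libraries were alternatives. RefSeq promoter sequences are from GRCm38.p6 and were matched for 27 of 41 members.

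The members, lists and choice of libraries 9 and 10 to leave out were fixed with earlier results of these data known. Values in every library are given for members that passed the test, for the 2 most abundant per kilobase of each group, and for members marked as chosen later. Context lists name up to 2 changed genes in each direction, or the most abundant, and 1 item is not reported here. Depth was 32330029 to 39655170 counts per library, so counting error is small except for genes of a few CPM, and p-values rest on the spread between mice.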

Additional observations from a re-analysis of the deposited data

Results flagged for a closer look

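In 4 of 82 sets of 5 libraries (41 members in each genotype), 1 library lay far from the rest by Dixon's criterion, which flags about 1 in 20 sets by chance. Rgs5 stood at 103 CPM in FXR-/- 9, against 61.3 to 66.2 CPM in the other FXR-/- libraries. Cnn1 stood at 36.4 CPM in FXR-/- 8, against 26.1 to 28.9. Myl9 stood at 208 CPM in FXR-/- 8, against 184 to 189.8. Lhx9 stood at 30.3 CPM in WT 3, against 20.2 to 22.9 in the other WT libraries.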

How the results depend on the processing

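Of 41 members, Vcam1 kept its direction and call in all 17 alternatives and Myl9 in 16. The members called numbered 2 of 8 progenitor, 2 of 16 contractile and 2 of 17 endothelial genes in the analysis reported. Leaving out 1 library gave 1 to 2, 1 to 2 and 0 to 2. Over all genes, 2576 were called, and 1427 to 2867 without 1 library, with 1427 without FXR-/- 11, 1601 without WT 4 and 1635 without FXR-/- 12. Without FXR-/- 9 and 10 the progenitor count was 1 and the contractile count 1. DESeq2 called 5 endothelial genes, scaling by library totals 4, and no filter on low counts 1 endothelial and 1 progenitor gene. In the same order, these settings called 18.8%, 14.6% and 7.46% of all genes tested. The cause of these shifts was not tested. Log2 fold changes near 0 changed sign with library totals alone in Actg2 (0.024), Itga9 (0.017), Flt1 (0.0046) and Vwf (0.0040), and with upper-quartile scaling in Actg2 (0.0026). They did so without FXR-/- 9 and 10 in Actg2 (0.11), Tek (-0.094), Tie1 (-0.056), Eng (-0.078) and Plvap (-0.035). Without 1 library they ranged from -0.047 to 0.068 (Acta2), -0.11 to 0.089 (Actg2), -0.0049 to 0.086 (Cald1), -0.051 to 0.044 (Tpm2), -0.11 to 0.067 (Itga9), -0.11 to 0.016 (Kdr), -0.050 to 0.080 (Tek), -0.0023 to 0.25 (Tie1), -0.049 to 0.062 (Eng), -0.088 to 0.040 (Flt1), -0.11 to 0.013 (Vwf) and -0.0025 to 0.19 (Plvap). None of these 12 genes was called in any alternative. Among genes outside the members, Srf was 0.020 with library totals and -0.027 to 0.0013 without 1 library, and Ednra -0.14 to 0.034 without 1 library. No other scaling moved the median of all genes by over 0.1 (log2). The share of called genes that were higher was 44.5% with TMM factors, 53% with upper-quartile factors and 61.5% with library totals. Group means moved by less than the SD between mice in every alternative run. No paired analysis was possible because the genotypes share only 1 library number. The depth limits Thy1, at a few CPM, more than the other named members.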
